A study of Homo sapiens and synthetic construct with 52 samples.

Results

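The proteins of the small subunit of the cytosolic ribosome were followed through genome-wide CRISPRi screens by the abundance of the guide RNAs that target their genes. Members were the guides whose gene name was RPSA or RPS followed by a digit, leaving out the ribosomal S6 kinases (RPS6K names), RPS19BP1 and names with a hyphen. The rule took 180 of the 103074 guides of the library, for 34 genes. RPS3 and RPS29 have separate guide sets for start sites named P1 and P2, so the members form 36 sets of 5 guides each, 1 per gene and start site.

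The small (40S) subunit scans messenger RNA for the start codon and holds the decoding centre, where codons are paired with transfer RNAs. It consists of a single ribosomal RNA and a set of proteins, most of them made by single genes, and is commonly described by its head, its body and its platform. Ribosomal proteins are needed in every growing cell, and heterozygous loss of several of them causes Diamond-Blackfan anaemia, a failure of red cell production. In CRISPRi, a nuclease-dead Cas9 fused to the KRAB repressor is brought by a guide RNA to a start site and lowers transcription there, so that cells with a guide against a gene they need are lost from the pool. Guide counts are counts of integrated guide DNA. The knockdown of each target was not measured.

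All screens used K562 cells, an established chronic myeloid leukaemia line of erythroid character, carrying dCas9-KRAB as a pool of cells. No sample was free of the CRISPRi machinery, so controls and treated samples share it. The survival screens used the newly cloned LGR library at 1000-fold cell coverage (1 T0 and 3 Tf samples) and at 100-fold coverage (2 T0 and 4 Tf samples), where Tf follows 7 days of culture after puromycin selection. T0 was taken as the start of that culture. Per the paper's methods puromycin began 2 days after infection and lasted 3 days, but the day of T0 is not stated. The dasatinib screens used the LGR library and the older legacy library of the same guides at 100-fold coverage. Each library was transduced once and then split, with 2 T0 samples (A and B) taken 7 days after infection, 2 samples given the vehicle, 0.01% DMSO, and 2 given 0.75 nM dasatinib, an inhibitor of the BCR-ABL1 kinase that K562 cells depend on, for 72 h with 6 days of recovery. A transduction titration of both libraries gave duplicate T0 samples at 10-fold, 50-fold, 100-fold and 200-fold coverage. Replicates are technical splits or repeat cultures of 1 cell pool, so p-values measure the spread between such samples, not between independent cell lines.

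Total counts, in M (1e6 reads), were 105.7 to 111.0 M per sample in the 1000-fold screen, 47.7 to 54.7 M in the 100-fold screen, 15.7 to 19.8 M in the dasatinib screens and 17.6 to 51.4 M in the titration. No member guide was at 0 in either plasmid library. In the LGR plasmid the members lay between 5.19 and 12.4 CPM, the count scaled to a library of 1 M reads, and in the legacy plasmid between 1.84 and 30.1 CPM. The spread of the members, as their 90th percentile of CPM over their 10th, was 1.56 in the LGR plasmid and 3.13 in the legacy plasmid, beside 1.92 and 5.11 over all guides.

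Genes of ribosomal proteins are known to start transcription at a C followed by a run of pyrimidines, the 5′ terminal oligopyrimidine tract through which their translation is regulated. The RefSeq promoter table (GRCh38.p14) held 27 of the 34 member genes, with 30 start sites. A C at the annotated start followed by 4 bases that are each C or T, read on the strand of transcription, stood in 19 of these 30 windows (63.3%), in 29 of 56 windows of large-subunit genes (51.8%) and in 1429 of all 35116 windows (4.07%). The windows of the following genes show annotated starts of members described below, as 20 bases before the start and 10 from it, with the tract in capitals where it is present. RPS19 has a second annotated start, at chr19:41860384-41860413, whose window holds no tract. RPS19 and RPS14 are genes whose guides split into depleted and steady ones, RPS27 and RPS27L are paralogs, and RPS4X, RPS4Y1 and RPS4Y2 are the copies of a single protein on the sex chromosomes.
RPS19 (chr19:41860235-41860264, + strand): gcccgggaaaccccgtcgttCCCTTTCCCC
RPS14 (chr5:150449730-150449759, - strand): tcgctccgccccctcccactCTCTCTTTCC
RPS27 (chr1:153990742-153990771, + strand): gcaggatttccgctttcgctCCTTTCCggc
RPS27L (chr15:63157468-63157497, - strand): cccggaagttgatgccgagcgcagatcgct
RPS4X (chrX:72277239-72277268, - strand): cgcgcgcagtctccagccccaatttctacg
RPS4Y1 (chrY:2841582-2841611, + strand): gcaccggaaaagaacagattCTCTTCCgtc
RPS4Y2 (chrY:20756088-20756117, + strand): acttcccgctgtttatcaccgcagattacg
RPS27 and RPS4Y1 carry the tract at the annotated start, and RPS27L, RPS4X and RPS4Y2 do not. Guide positions below are those in the guide names, on hg19, and were not set against these windows.

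At the T0 of the survival screens the small-subunit guides had hardly left their plasmid level. The median member stood at -0.07 in the 1000-fold T0 sample and at -0.08 and -0.14 in the 100-fold T0 samples, on the scale of log2 CPM over plasmid less the median of the non-targeting guides. No member fell below 10% of its plasmid level, and none was at 0. Each guide's change was tested by quasi-likelihood in edgeR, and called at a Benjamini-Hochberg adjusted p under 0.05 over all guides tested. In T0 against plasmid 0 of 180 members were called lower, while 0.788% of all guides were. At an unadjusted p under 0.05 in this test, 20 members were lower, beside 6119 of all 103073 guides. Genes were scored by the phenotype, the mean log2 change of the 3 guides of largest absolute change less the non-targeting median. They were called by an exact Mann-Whitney test of their guides against all non-targeting guides, adjusted over all genes and start sites. By that score 0 of 36 member sets were called lower against 0.108% of all sets. Unadjusted, 8 member sets were lower at p under 0.05, beside 571 of all 20375 sets. The lowest phenotypes were RPS14 at -0.72 ± 0.29 and RPS27A at -0.70 ± 0.09 (SD, n = 3). A test of counts summed over the guides of each set called 3 members lower, and 262 of all 20375 sets. The plasmid was read on another sequencer than the T0 samples.

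In the titration the members' median lay between -0.15 and -0.24 in the LGR samples at 50-fold to 200-fold coverage and between -0.24 and -0.32 in the legacy samples at these coverages. No member was at 0 in these 12 samples. At 10-fold coverage 13 and 3 members were at 0 in the LGR samples, beside 468 and 339 of all 103074 guides. In the legacy samples 6 and 2 members were, beside 6434 and 4966 of all guides. The plasmids themselves had 2 (LGR) and 770 (legacy) guides at 0. At 10-fold coverage the members' median was -0.61 and -0.57 in the LGR samples and 0.02 and -0.29 in the legacy samples. The duplicates also scattered more there. The SD of the log2 ratio between duplicates, over members with 50 or more counts on average, was 1.53 in the LGR and 1.82 in the legacy samples at 10-fold coverage, and 0.27 to 0.40 in both libraries at the higher coverages. The levels in the titration were not tested.

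Over the 7 days of the survival screens most small-subunit guides were depleted. In the 1000-fold Tf samples the median member stood at -1.62, -1.64 and -1.65 on the plasmid scale. The targeting guides outside the members had medians between -0.01 and 0.00 there. In the 100-fold Tf samples the median member stood at -2.02, -2.03, -2.0 and -2.12. Between 61 and 74 of the 180 members were under 10% of their plasmid level in each of the 7 Tf samples, and between 33 and 48 were above 90% of it. The members made up 0.137% of all reads in the 1000-fold T0 sample and 0.0712%, 0.0701% and 0.0708% in the Tf samples. Members with no reads numbered 1, 2 and 4 in the 1000-fold Tf samples and 23, 13, 20 and 19 in the 100-fold Tf samples. Of all 103074 guides, 117, 134 and 125 had no reads in the former and 636, 579, 580 and 767 in the latter.

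Against T0, 116 of 180 members fell in the 1000-fold screen, where 9.07% of all guides tested were called lower, and 101 of 180 fell in the 100-fold screen, where 5.68% were. No member was called higher in either. The 1000-fold screen has a lone T0 sample, which the test takes to vary like the Tf samples. The median log2 change of the members was -1.53 at 1000-fold and -1.94 at 100-fold coverage, beside 0.01 and 0.03 over all guides. Every guide called at 100-fold coverage was also called at 1000-fold coverage, which is 100% of the 101 calls and 87.1% of the 116. The log2 changes of the 180 guides in the 2 screens, which share library and cells but no sample, correlated at r = 0.91. The 100-fold count rests on its T0 samples, with 48 members called without T0 sample 1 and 47 without T0 sample 2. In the test of the difference between the screens, 0 of 180 members were called in either direction, as were 0% of all guides. Unadjusted, 4 members had p under 0.05, all with the higher value at 1000-fold coverage. Of all 102997 guides, 464 had the higher value there and 855 the lower at this p.

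The changes were far from even over the members. At 1000-fold coverage the 116 called guides ranged from -9.03 to -0.51, the 64 others from -0.68 to 0.32, and 65 of the 180 lay below -3 on the log2 scale. All 5 guides were called in 11 of the 36 sets, 4 in 9 sets, 3 in 6, 2 in 3, 1 in 1 and none in 6. By the strand that the guide names give, 60 of 97 guides were called on the + strand and 56 of 83 on the - strand.

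By gene score 22 of 36 sets fell in the 1000-fold screen, where 7.19% of all sets were called lower, and 22 fell in the 100-fold screen, where 6.6% were. The median phenotype of the members was -3.32 and -3.81, beside -0.05 and -0.10 over all sets, and 20 sets were called in both screens. The p-value of a gene score has guides, not samples, as its units. Of the 17 proteins of the body and platform list, 15 fell in each screen, with a median phenotype of -4.13 and -4.98. Of the 16 sets of the head list, 7 fell in each, with a median of -2.60 and -3.36. The head list counts both start sites of RPS3 and of RPS29, and neither P2 set was called in either screen. The 3 paralog sets were called in neither. The difference between the head and the body lists was not tested.

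RPS27A had the lowest phenotype at 1000-fold coverage. It encodes a fusion of ubiquitin with a small-subunit protein of the head, so its transcript also supplies ubiquitin. Its guide on the + strand at 55459832 (hg19, chromosome 2) had 749 counts at T0 and 7, 6 and 27 at Tf. The guide at 55459814 on the - strand went from 593 to 33, 19 and 1, and the one at 55459862 from 338 to 4, 2 and 0. All 15 Tf counts of the gene were at or below 33, with T0 counts from 338 to 749, so T0 and Tf did not overlap. The phenotype was -6.69 ± 0.29 (SD, n = 3) by the exact Mann-Whitney test at an adjusted p of 2.52e-12, and -6.62 ± 1.28 (n = 4) in the 100-fold screen.

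Of the body and platform proteins, RPS14 fell to -5.87 ± 0.31, RPS23, which lines the decoding centre, to -5.68 ± 0.51 and RPS4X to -5.54 ± 0.37 (SD, n = 3). RPSA, also known as the laminin receptor precursor, fell to -5.03 ± 0.27, RPS24 to -4.88 ± 0.31, RPS6, the target of the S6 kinases, to -4.88 ± 0.11 and RPS13 to -4.76 ± 0.45. RPSA, RPS4X, RPS13, RPS23, RPS24 and RPS6 had all 5 guides called at 1000-fold coverage. The values at 100-fold coverage were lower for RPS13, at -6.62 ± 1.17, and for RPSA, at -6.62 ± 0.69 (SD, n = 4), and about level for RPS4X, at -5.54 ± 1.14.

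The weakest members of this list were proteins of the mRNA entry side and RPS3A. RPS9 stood at -1.01 ± 0.18 and RPS2 at -1.08 ± 0.03 at 1000-fold coverage, neither past the threshold, with exact adjusted p-values of 0.288 and 0.0560. RPS9 fell at 100-fold coverage, to -1.43 ± 0.38, and was called there with an exact adjusted p of 0.000215, while RPS2 stood at -1.55 ± 0.34 and was not called. Their guides moved in small steps. The 4 RPS2 guides called lower at 1000-fold coverage had 738 to 1208 counts at T0 and 327 to 613 over the 3 Tf samples. The fifth guide went from 825 to 871, 881 and 1036. RPS3A fell to -1.50 ± 0.15 and -1.86 ± 0.25. No RPS2 or RPS9 guide was among those that lost nearly all reads.

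In the head list RPS18 fell to -4.46 ± 0.30 and -6.20 ± 1.02, RPS20 to -4.21 ± 0.16 and -4.41 ± 0.55, and RPS28 to -2.23 ± 0.05 and -3.0 ± 0.78 (SD, n = 3 at 1000-fold and 4 at 100-fold coverage). All 5 guides of RPS28 were called at 1000-fold coverage although none lay below -2.68. RPS10, RPS12, RPS15, RPS16 and RPS3 P1 missed the threshold of the gene score at 1000-fold coverage although each had at least 1 guide called. Of these only RPS10 was called at 100-fold coverage, at -3.82 ± 0.54. RPS19, called at 1000-fold coverage, missed the threshold there.

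In the head list RPS25, RPS3 P2 and RPS29 P2 had no guide called in either screen. RPS25 is known for its part in translation from internal ribosome entry sites. Its phenotype was -0.36 ± 0.04 and -0.44 ± 0.17, with exact adjusted p-values of 0.521 and 0.666. The guide on the + strand at 118888990 (chromosome 11) had 689 counts at T0 and 537, 514 and 629 at Tf, and the guide at 118889329 had 1023 and then 1366, 1111 and 1301. Summed over its guides, RPS25 was at 43.5 CPM in the 1000-fold T0 sample and at 44.3, 38.7 and 42.1 CPM at Tf, so that T0 lay inside the range of Tf. The log2 change of the summed counts was -0.12 ± 0.06 (SE, edgeR adjusted p = 0.213). Under DMSO in the LGR library, against T0, the summed counts of RPS25 fell by 0.41 (SE 0.13, edgeR adjusted p = 0.0493), with a phenotype of -0.77 ± 0.30 that missed the threshold (exact adjusted p of 0.0570). In the legacy library the summed change was -0.04 ± 0.11 (edgeR adjusted p = 0.912).

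RPS15 showed how a gene with a single active guide drops out of the gene score. RPS15 is a protein of the head near the decoding region. Its guide on the - strand at 1438413 (chromosome 19) had 688 counts at T0 and 29, 43 and 38 at Tf, a log2 change of -4.27. The other 4 guides changed by -0.11 to 0.06 and were not called. The phenotype was -1.51 ± 0.01 with an exact adjusted p of 0.497. A test of summed counts with edgeR gave -0.29 ± 0.07 (SE) with an adjusted p of 0.000193 at 1000-fold coverage, and 0.01 ± 0.13 with an adjusted p of 0.987 at 100-fold coverage.

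Guides of 1 gene often split into those that lost nearly all reads and those that kept them. For RPS19, the gene most often mutated in Diamond-Blackfan anaemia, the guides at 42364314 (+ strand) and 42364369 (- strand) went from 381 to 13, 5 and 0 counts and from 666 to 18, 11 and 3. The guide at 42364352 lies between them, 38 and 17 bases away, and had 697 counts at T0 and 684, 601 and 663 at Tf. The other 2 guides went from 738 to 580, 615 and 626 and from 456 to 399, 398 and 473. The phenotype was -4.45 ± 1.09 (SD, n = 3) with an exact adjusted p of 0.000997 at 1000-fold coverage, and -4.78 ± 0.70 (n = 4) with one of 0.435 at 100-fold coverage. There the guide at 42364314 had no reads in any of the 4 Tf samples, at least 58.0-fold lower than its T0 mean when 3 counts per library are taken as the floor.

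RPS14, which lies in the part of chromosome 5 lost in a myelodysplastic syndrome, had the same split. Its 4 guides on the + strand, at 149829225 to 149829260, went from 1075 to 97, 51 and 106 counts, from 495 to 7, 9 and 14, from 785 to 18, 4 and 12 and from 589 to 19, 18 and 9. The guide on the - strand at 149829307, 47 bases from the nearest of them, had 1015 counts at T0 and 1018, 944 and 1156 at Tf. At 100-fold coverage that guide had 366 and 314 counts at T0 and between 391 and 605 at Tf, a change that was not called. The gene score there was -6.85 ± 0.22 (SD, n = 4), not past the threshold with an exact adjusted p of 0.164, while 4 of 5 guides were called. Counts summed over the guides fell there by 1.45 on the log2 scale (SE 0.22, edgeR adjusted p = 5.73e-06).

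Some such pairs were a few bases apart. In RPS3 P1 the guides on the - strand at 75110633 and 75110640 (chromosome 11) are 7 bases apart and changed by -4.58 and 0.15. In RPS3A the guides at 152021009 and 152021014 on the - strand are 5 bases apart and changed by -2.45 and -0.36. Over all members, 110 pairs of guides of 1 set lie within 50 bases of each other. Both were called in 80 of these pairs, 1 in 15 and neither in 15. Over all 360 pairs within a set the counts were 185, 94 and 81. The sequences of these guides and their match to the K562 genome were not analysed here.

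RPS29 and RPS3 have separate guide sets for P1 and P2. RPS29 P1 fell in both screens, RPS3 P1 was not called by gene score although 2 of its 5 guides fell, and no P2 guide of either gene was called. RPS29 is a small zinc-binding protein of the head. Its P1 guides, at 50052615 to 50052917 on chromosome 14, summed to 36.8 CPM at T0 and to 5.38, 5.06 and 4.52 CPM at Tf at 1000-fold coverage. Its P2 guides, 12259 bases from the nearest P1 guide, summed to 44.2 CPM at T0 and to 44.0, 47.6 and 45.8 CPM at Tf. The phenotypes were -4.16 ± 0.09 for P1, with an exact adjusted p of 3.85e-10, and -0.03 ± 0.06 for P2, with one of 0.920. In the 100-fold screen they were -4.83 ± 0.97 and -0.13 ± 0.25.

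RPS3 forms part of the mRNA entry channel. Its P1 and P2 guides are 707 bases apart at the nearest. Of the P1 guides, those at 75110586 and 75110633 were called, with 939 counts at T0 and 176, 257 and 153 at Tf for the first and 838 against 34, 37 and 37 for the second. The other 3 P1 guides and the 5 P2 guides were called in neither screen. The phenotypes at 1000-fold coverage were -2.29 ± 0.18 for P1, with an exact adjusted p of 0.481, and 0.04 ± 0.09 for P2, with one of 0.971. Summed counts of P1 fell by 0.57 on the log2 scale (SE 0.06, edgeR adjusted p = 1.18e-15), and those of P2 were at 0.05 ± 0.06.

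The paralogs behaved unlike their partners. RPS4X, on the X chromosome, and RPS4Y1 and RPS4Y2, on the Y chromosome, encode closely related forms of a single protein of the body. The guides of RPS4X summed to 35.6 CPM at T0 and to 4.06, 4.11 and 4.62 CPM at Tf at 1000-fold coverage. Those of RPS4Y1 summed to 45.2 CPM and to 47.2, 46.7 and 47.7 CPM, and those of RPS4Y2 to 41.4 CPM and to 47.6, 47.8 and 45.1 CPM. The phenotypes were -5.54 ± 0.37 for RPS4X, with an exact adjusted p of 4.98e-11, 0.02 ± 0.06 for RPS4Y1 and 0.16 ± 0.07 for RPS4Y2. None of the 10 guides of RPS4Y1 and RPS4Y2 was called in either screen. Whether K562 cells carry or express these Y-linked genes was not measured here. The values of their guides therefore do not show whether cells with these genes need them.

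RPS27 and RPS27L, a paralog known as a target of p53, gave a like contrast. RPS27 guides summed to 44.6 CPM at T0 and to 14.5, 14.8 and 15.5 CPM at Tf, and RPS27L guides to 41.5 CPM at T0 and to between 36.3 and 41.0 CPM at Tf. The phenotype of RPS27 was -3.43 ± 0.33 with an exact adjusted p of 0.0105, and that of RPS27L -0.24 ± 0.05 with one of 0.150. At 100-fold coverage they were -4.80 ± 1.56 and -0.06 ± 0.20. The guide of RPS27 at 153963248 (chromosome 1) did not take part, with 1085 counts at T0 and 1041, 1161 and 1230 at Tf. It lies 27 bases from a guide that went from 908 to 49, 33 and 41.

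A test of counts summed over the guides of a set, which uses samples as units, called 30 of the 36 sets lower at 1000-fold and 28 at 100-fold coverage, where it called 3191 and 1724 of all 20375 sets. It called each of the 22 sets of the gene score in both screens, with 8 further sets at 1000-fold coverage, RPS2, RPS3 P1, RPS9, RPS10, RPS12, RPS15 and RPS16 among them, and 6 at 100-fold coverage, RPS2, RPS3 P1, RPS14, RPS16 and RPS19 among them. The 6 sets called by neither at 1000-fold coverage were RPS3 P2, RPS4Y1, RPS4Y2, RPS25, RPS27L and RPS29 P2. These 6 were also called by neither at 100-fold coverage, as were RPS12 and RPS15.

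In the dasatinib screens the small-subunit guides were already depleted at T0, 7 days after infection. The median member stood at -0.71 and -0.57 on the plasmid scale in the LGR T0 samples and at -0.68 and -0.81 in the legacy T0 samples. Between 10 and 15 members were under 10% of their plasmid level in each, and none was at 0. Against plasmid, 72 of 180 LGR guides fell, where 3.32% of all guides were called lower, and 81 of 180 legacy guides fell, where 2.79% were. By gene score 12 of 36 sets fell in the LGR library, against 2.32% of all sets, and 18 in the legacy library, against 2.2%. RPS27A was lowest in both, at -3.42 ± 0.49 and -3.91 ± 0.35 (SD, n = 2), and RPS13 followed at -3.05 ± 0.01 and -3.16 ± 0.07 among the sets called. The values of the 180 guides in the 2 libraries, which were transduced separately, correlated at r = 0.88. Of the guides, 64 were called in both, 88.9% of the LGR and 79.0% of the legacy calls. For LGR the plasmid was read on another sequencer than the T0 samples.

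RPS27A shows the course. Its guides summed to 34.7 CPM in the LGR plasmid, to 5.80 and 4.01 CPM at T0 and to 1.63 and 0.23 CPM in the DMSO samples. In the legacy library they summed to 58.5 CPM in the plasmid, 5.83 and 5.60 CPM at T0 and 0.17 CPM in both DMSO samples. RPS29 P1 went from 38.4 CPM to 13.9 and 13.4 and then 3.55 and 3.65 CPM in the LGR library, while RPS29 P2 stayed between 39.3 and 47.1 CPM from plasmid to DMSO. RPS4Y1 guides were at 41.4 CPM in the LGR plasmid and between 48.8 and 51.0 CPM in the T0 and DMSO samples, and RPS4X guides at 41.8 CPM in the plasmid, 19.0 and 21.2 CPM at T0 and 4.64 and 2.84 CPM under DMSO.

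By the end of culture in DMSO the median member stood at -2.45 and -2.22 on the plasmid scale in the LGR samples. In the legacy samples it stood at -3.17 and -2.78. Members at 0 numbered 27, 33, 34 and 33, LGR samples first, beside 1071, 1251, 2377 and 2302 of all 103074 guides. Against T0, 68 of the 179 members tested fell in the LGR library, where 7.42% of all guides were called lower, and 84 of 178 fell in the legacy library, where 6.88% were. None was called higher. Since many guides reached T0 with few reads, this comparison covers only their loss after T0. The LGR count fell to 13 without T0 sample A and 17 without sample B, and the legacy count to 41 and 47. Over the 177 members tested in both libraries the log2 changes correlated at r = 0.59, and 55 guides were called in both, 80.9% of the LGR and 65.5% of the legacy calls. The difference between the libraries was called for 0 of 177 members and 0.149% of all guides. Unadjusted, 40 members had an edgeR p under 0.05, 19 with the lower and 21 with the higher value in LGR. Over all 101583 guides these counts were 5662 and 4082.

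By gene score 16 of the 35 sets with enough counts fell in the LGR library, against 6.17% of all sets, and 14 of 34 in the legacy library, against 5.62%. Of the 126 and 120 guides scored, 49 and 48 reached the minimum of 50 counts only at T0, where they are high, so the counts of sets describe those that passed. Among the sets called were RPS13 at -4.66 ± 1.15 over 3 guides and RPS18 at -3.68 ± 0.23 over 2 guides in the LGR library, and RPS24 fell to -4.42 ± 1.36 over 2 guides in the legacy library (SD, n = 2). RPS27A, lowest in the 1000-fold survival screen, had no guide with a mean of 50 counts at T0 or DMSO in either library and so has no score. Its summed counts changed by -2.43 ± 0.52 in the LGR library (SE, edgeR adjusted p = 0.00206). In the legacy library they changed by -5.02 ± 0.62 (SE, edgeR adjusted p = 1.53e-06). RPS14 kept 2 guides in the LGR and 1 in the legacy library, and its phenotypes of -2.53 ± 0.85 and -0.17 ± 0.14 were not called. Summed counts of RPS14 changed by -0.64 ± 0.25 in the LGR library (SE, edgeR adjusted p = 0.126). The legacy change was -0.63 ± 0.19 (SE, edgeR adjusted p = 0.0324). RPS2 and RPS9, weak in the survival screens, kept all 5 guides in both libraries. RPS2 fell to -1.33 ± 0.52 and -2.84 ± 0.38. RPS9 fell to -1.84 ± 0.22 in the LGR library and was not called by gene score in the legacy library, at -1.87 ± 0.21. Its summed counts in the legacy library changed by -0.40 ± 0.11 (SE, edgeR adjusted p = 0.0189).

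Dasatinib was compared with DMSO to ask whether losing a gene changes the response to the drug. The guides that could still be measured were a remainder of the members, since 145 of 180 in the LGR and 135 of 180 in the legacy library had 10 or more counts in any of the 4 samples. No LGR guide of the members was called, against 0.00393% of all guides called lower and 0.0954% called higher. At an unadjusted edgeR p under 0.05, 6 and 12 members were lower and higher, beside 4678 and 7521 of all 101701 guides. DESeq2 called 1 LGR member higher, with no count over all guides given here for that fit. In the legacy library 0 members were called lower and 1 higher, against 0.0349% and 0.572% of all guides. Unadjusted, 3 and 16 members had an edgeR p under 0.05, beside 4549 and 8261 of all 100304 guides. The median log2 difference of the members was 0.25 in the LGR and 0.35 in the legacy library, beside 0.03 and 0.02 over all guides. These medians are descriptions of the guides that passed, since 18 of the 145 LGR and 22 of the 135 legacy guides reached 10 counts only with dasatinib, and 12 and 7 only with DMSO. The 2 libraries' members differed from each other in 0 of 126 guides tested, against 0.00301% of all guides. Unadjusted, 19 members had an edgeR p under 0.05, 8 with the lower and 11 with the higher value in LGR. Over all 99669 guides these counts were 5209 and 4981. Without TMM scaling the members' medians were 0.10 and 0.22, and those of all guides -0.12 and -0.11.

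The guide called was the RPS2 guide on the + strand at 2014739 (chromosome 16). It had 14 and 7 counts in the legacy DMSO samples and 94 and 107 with dasatinib, a log2 difference of 3.43 ± 0.63 (SE, edgeR adjusted p = 0.0485). In the LGR library it had 39 and 109 counts with DMSO and 43 and 77 with dasatinib, a difference of -0.07 ± 0.60. The call was lost without TMM scaling, with scaling on the non-targeting guides and with a minimum of 50 counts on average.

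By gene score no member set of the 31 tested was called in the LGR library, against 0.383% of all sets called lower and 0.631% higher. At an unadjusted Mann-Whitney p under 0.05, 5 were higher and 0 lower, beside 923 and 712 of all 20129 sets. In the legacy library 0 of 30 were called lower, against 0.462% of all sets, and RPS28 was called higher, against 0.645%. Unadjusted, 5 legacy sets were higher and 0 lower at a Mann-Whitney p under 0.05, beside 947 and 878 of all 20151 sets. The median phenotype of the sets scored was 0.01 and 0.09. The minimum of 50 counts was reached only with dasatinib by 11 of the 88 LGR and 11 of the 83 legacy guides scored, and only with DMSO by 4 in each. All 3 guides behind the legacy score of RPS28, 1.76 ± 0.14 (SD, n = 2), were among those that reached it only with dasatinib, so the score is a description and supports no difference. Its guides summed to 4.30 and 6.16 CPM in the legacy DMSO samples and to 15.6 and 13.9 CPM with dasatinib, without overlap, against 54.4 CPM in the plasmid. In the LGR library, where 2 of its 3 scored guides passed only with dasatinib, they summed to 11.4 and 9.38 CPM and to 17.9 and 11.1 CPM, which overlap, and the phenotype of 0.63 ± 0.67 was not called. The call was lost without legacy DMSO sample 1, without either legacy dasatinib sample, with no count minimum and with counts summed over the guides.

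RPS20 had phenotypes of 1.95 ± 1.81 over 2 guides and 4.20 ± 0.20 over a single guide with dasatinib, neither past the threshold. Of these, 1 LGR guide and the legacy guide, which are the same guide, reached the count minimum only with dasatinib, so these values too are a description. That guide had 13 and 0 counts in the LGR DMSO samples and 251 and 12 with dasatinib, and 2 and 5 against 48 and 65 in the legacy library. The log2 ratio between the LGR dasatinib samples had an SD of 1.25 over the 84 members with 50 or more counts on average, beside 0.52 over 77 members between the LGR DMSO samples. In the legacy library the SDs were 0.83 and 0.47. The lowest phenotypes were RPS26 at -2.13 ± 1.45 in the LGR and RPS27 at -0.97 ± 0.07 in the legacy library, neither called.

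Many sets of the lists for the rest of the ribosome and for its assembly fell in the survival screens, where 7.19% and 6.6% of all sets were called lower. FAU, which encodes a ubiquitin-like protein fused to a small-subunit protein, fell to -3.38 ± 0.23 and -3.37 ± 0.87. GNB2L1, the older name of RACK1, a scaffold on the head, fell to -1.66 ± 0.09 and -1.96 ± 0.23 (SD, n = 3 and 4). Of 50 sets of a list for 40S assembly factors, 39 fell at 1000-fold and 38 at 100-fold coverage. The list also holds LSG1, which is known for the maturation of the large subunit and was called at 100-fold coverage only. The list had median phenotypes of -3.55 and -4.26. NOP58 was lowest in both, at -6.30 ± 0.75 and -7.50 ± 0.84, and TSR3 stood at -0.02 ± 0.03 and -0.14 ± 0.21. Of 55 sets for the large subunit, 29 and 28 fell, with median phenotypes of -2.72 and -3.44, and RPL31 was lowest at -6.06 ± 0.74 and -7.38 ± 1.16. RPL3L stood at 0.01 ± 0.07 and 0.08 ± 0.28 and was not called. Of the 272 large-subunit guides 163 and 133 fell, 59.9% and 48.9%, beside 64.4% and 56.1% of the small-subunit guides. Of 8 sets for small-subunit genes of Diamond-Blackfan anaemia 5 fell in each screen. The 8 include RPS29 P2, which was called in neither. Whether these lists differ from the small subunit was not tested.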

How the data were processed

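The raw read counts per guide were made and deposited by the authors, who processed them with ScreenProcessing per their methods. Per the submitters' processing notes bcl2fastq was used and the build is hg19, with tool versions not given in the sources used. Replicates were not pooled. HiSeq plasmids, whose labels and titles conflict, were mapped by title. The LGR plasmid read on the NextSeq numbers its guides without names and was not used here.

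The members and gene lists were chosen with earlier results of these data known. Counts were tested with edgeR 4.0.16 (quasi-likelihood, TMM scaling, keeping guides that reached 10 counts in any sample) in R 4.3.3. Tests of a difference between screens needed 10 counts in each. Fits used the samples of a comparison only, without a replicate block. The gene score (Python 3.11.15) used guides with a mean of 50 or more counts in either arm, a count of 0 set to 1, CPM ratios over the mean of the base samples, and the 3 strongest guides. Adjusted p-values are Benjamini-Hochberg over all guides or sets, threshold 0.05. Both procedures were run on simulated counts in which all guides of a changed gene had the same effect. That setting does not cover sets whose guides split. Folds against 0 use a floor of 3 counts per library and cover counting error only. No samples of a group held identical counts.

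Genes named are, per comparison, the 5 lowest and 5 highest sets and those not called in both survival screens, as far as space allows, RPS19, RPS14, the paralogs, the genes with separate start sites, and the lowest and highest of other lists. RPS15, RPS28 and single guides with large splits or dasatinib differences were singled out after their values were seen. The results of some members are not reported here, although counts over the members include them. Alternatives were library totals, non-targeting scaling, DESeq2 1.42.0, other filters, other gene scores, leaving out samples and, added after the data were seen, summed counts.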

Additional observations from a re-analysis of the deposited data

How the results depend on the processing

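The count of small-subunit guides lower at 1000-fold coverage was 116 in the main setting and 113 to 116 over 8 alternatives. None of these could leave out the lone T0 sample of that screen, so their range does not cover its spread. Left-out samples moved the 100-fold count of 101 to between 47 and 102, that of DMSO against T0 from 68 to between 13 and 85 (LGR) and from 84 to between 41 and 90 (legacy), and that of T0 against plasmid in the survival screens from 0 to between 0 and 2. For dasatinib against DMSO they gave 0 to 8 guides lower and 0 to 16 higher in the LGR library, and 0 to 6 lower and 0 to 15 higher in the legacy library. The counts of 8 and 6 lower and 11 and 16 higher (LGR) and of 3 and 6 lower and 15 and 10 higher (legacy) came from fits with a lone dasatinib sample, which is assumed to vary like the DMSO samples. DESeq2 called 1 LGR and 4 legacy guides higher with dasatinib, and the replicate block called 2 and 3. Counts over all guides are not given here for these dasatinib alternatives or for the left-out samples. Their member counts therefore have no share beside them and are not read as a result. The legacy call of 1 guide became 0 without TMM scaling, with non-targeting scaling and with 50 or more counts on average, a filter that also took the legacy DMSO count to 55. By gene score the legacy count of 1 set higher, RPS28, ranged from 0 to 1 when samples were left out. Summed counts called 24 sets lower under DMSO in the legacy library in place of 14, 3 at the survival T0 in place of 0, 22 at the LGR T0 in place of 12, and 0 higher with legacy dasatinib in place of 1. Over all 20375 sets it called 1954, 262 and 1152 lower in the first 3 of these comparisons. The cause of these shifts was not tested. Of the 105 gene values past the threshold, none changed sign under any alternative, and 37 of 907 recomputed values were no longer past it. Replicate numbers do not pair the samples: deviations of same-numbered samples correlated at 0.00 in each library and in the 100-fold screen, and the replicate block gave 105 or 97 guides lower at 100-fold coverage, by either reading of the pairs, in place of 101. T0 against plasmid in the dasatinib screens was not run without a T0 sample for guides, since no spread would remain. Reads at T0 limit what the dasatinib screens can show of the strongest members.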
